A study of Mus musculus with 4 samples.

Results

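The transcripts of Esm1, Kcne3, Cd34, Rasgrp3, Ptp4a3, Pcdh17 and Tmem255a were followed here through the development of the mouse heart. The set is named for endothelial tip cells, the cells that lead a growing vessel sprout, and not every member is particular to them. The 7 genes were taken by name from the 27998 genes counted in each library, and the set was proposed with earlier results of these data known. The cells were CD31+/CD45- endothelial cells (ECs) sorted from pooled hearts of C57Bl6J mice: 37 animals at embryonic day (E) 12, 48 animals at E15, 21 at postnatal day (P) 2 and 6 adults of 8 weeks. The labels give no transgene or treatment, and each stage gave 1 library from frozen and thawed cells. Embryonic cells were cleared of dead cells after thawing, whereas P2 and adult cells were sorted again for live cells, so stage cannot be told apart from library or handling. Every value below therefore describes single libraries, and no p-value was computed.

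Tip cells extend filopodia into the tissue and migrate, while the stalk cells behind them divide and form the lumen. Tip cells are guided by vascular endothelial growth factor and held in number by Notch signaling. In the heart, coronary vessels are built from ECs of the sinus venosus and of the endocardium, the inner lining of the chambers, and part of the sprouting plexus is later remodeled into arteries.

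The members have different roles. Esm1 encodes endocan, a secreted proteoglycan that marks tip cells of the retina (chr13:113209659-113218098, plus strand). Kcne3 encodes an accessory subunit of voltage-gated potassium channels (chr7:100176502-100184869, plus strand). Cd34 encodes a sialomucin of the cell surface of ECs and progenitors (chr1:194938819-194961279, plus strand). Rasgrp3 encodes an exchange factor that activates Ras and Rap GTPases (chr17:75435896-75529054, plus strand). Ptp4a3 encodes the phosphatase PRL-3, linked to cell migration (chr15:73723145-73758766, plus strand). Pcdh17 encodes a protocadherin, a cell adhesion protein (chr14:84443563-84539002, plus strand). Tmem255a encodes a transmembrane protein (chrX:38196573-38252439, minus strand). Positions are those of GRCm38, and all 7 genes are protein-coding. Esm1 lies inside the longer Gzmk on the opposite strand, which had 0 unique molecular identifiers (UMIs, 1 per captured transcript) in the cells of every library. The antisense genes Gm34821 at Kcne3 and Gm16897 at Cd34 had 0 to 5 and 2 to 16 UMIs per library. Zbtb33, which overlaps the end of Tmem255a on the opposite strand, had 51 to 154.

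Upstream sequence of Esm1 and Kcne3 is shown because these are the members whose levels moved in different directions after birth. RefSeq promoters on GRCm38.p6 were matched for 6 of the 7 members, Ptp4a3 being the exception, and gave 8 windows of 300 bases. The bases before the first annotated exon are printed 5′ to 3′ on the plus strand. In Esm1 (chr13:113209409-113209658) capitals mark TAAACA, a core of forkhead factor motifs. In Kcne3 (chr7:100176420-100176501) capitals mark CTTCCT, the reverse complement of AGGAAG, a core of ETS factor motifs.
Esm1: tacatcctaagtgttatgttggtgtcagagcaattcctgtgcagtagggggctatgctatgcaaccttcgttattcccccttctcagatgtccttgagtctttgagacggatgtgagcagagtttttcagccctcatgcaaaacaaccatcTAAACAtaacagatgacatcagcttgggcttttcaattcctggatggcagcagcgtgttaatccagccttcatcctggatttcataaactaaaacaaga
Kcne3: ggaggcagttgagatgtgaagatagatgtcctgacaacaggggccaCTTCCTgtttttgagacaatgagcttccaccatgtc
Over both strands, AGGAAG was in 5 of the 8 member windows, at Cd34, Rasgrp3, Tmem255a and both starts of Kcne3, and in 35.4% of the 32851 promoters of the same length. TAAACA was in 3 of 8, at Esm1, Pcdh17 and Rasgrp3, and in 13.4% of all. ACGTG, the core of hypoxia response elements, and TGGGAA, a core of RBPJ motifs, were each in 1, both at Kcne3, and in 19.6% and 25.6% of all. A match is only a run of letters, and the Kcne3 starts differ in which motifs they hold.

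Cells were classed by summed UMIs of marker genes. Coronary ECs had at least 2 UMIs of Fabp4, Cldn5 and Aplnr together and more of these than of Npr3 and Tmem108, and endocardial cells had more of Npr3 and Tmem108. The artery rule asked for at least 3 UMIs of Cxcl12, Glul, Alpl and Nebl, and cells passing it can also be in another class. Coronary ECs were 113 of 5732 cells at E12 (1.97%), 1254 of 6062 at E15 (20.7%), 4596 of 5884 at P2 (78.1%) and 4077 of 4242 in the adult (96.1%). Endocardial cells numbered 1716, 2115, 1082 and 75 in the same order, and the artery rule was passed by 332, 69, 711 and 1875 cells. The coronary ECs held medians of 1997, 1169.5, 4561.5 and 1485 UMIs, so a weakly expressed gene was seen more easily in a P2 cell than in an E15 cell. Levels are given as counts-per-million (CPM), the gene's UMIs scaled to the summed UMIs of the class, with exact 95% Poisson intervals. All intervals cover counting error only.

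The class names held up unequally against markers outside the rules. A UMI of Pecam1 or Cdh5, pan-endothelial genes, was found in 61.9%, 64.8%, 98.9% and 91.2% of coronary ECs from E12 to the adult. In cells passing the artery rule it was found in 7.83% and 30.4% at E12 and E15 and in 99.7% and 94.3% at P2 and in the adult. Mesenchymal genes such as Col1a1 and Dcn summed to 2991 and 6224 CPM in the embryonic artery-rule cells and to 160 and 708 CPM at the later stages. The embryonic cells are therefore called by the rule and not as artery cells. Arterial genes outside the rule, such as Gja4 and Gja5, summed to 958 CPM in artery-rule cells at P2 against 348 CPM in all coronary ECs. In the adult the same sums were 584 and 429 CPM, and the rule took 44.2% of all cells, so there the class is wider than arteries. Capillary genes outside the rules, such as Rgcc and Cd36, summed to 98.8 CPM (24 UMIs) in the coronary class at E12 and to 1138, 4126 and 8809 CPM later, so the E12 class carried few coronary capillary transcripts. Vein genes there were at 350 CPM. Lymphatic genes (Prox1, Lyve1, Pdpn, Ccl21a, Mmrn1) were present in the coronary class at 683, 449, 1019 and 88.2 CPM. In the endocardial class 41.8%, 46%, 98.2% and 93.3% of cells had a Pecam1 or Cdh5 UMI, and its own genes outside the rule, such as Nfatc1, summed to 420, 687, 938 and 2486 CPM against 119, 130, 218 and 158 CPM in coronary ECs. At E15, 1 coronary cell held 2035 of the 2349 erythroid UMIs of the class, and without it erythroid genes were at 187 CPM. Some results are also given without cells holding at least 2 lymphatic UMIs. Libraries shared 25 to 60 cell barcodes pairwise, where 33 to 48.4 would be shared by their sizes alone.

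Esm1 and Kcne3 took different courses in coronary ECs. From E12 through E15 and P2 to the adult, Esm1 stood at 32.9 CPM (14.2 to 64.9), 10.7 (6.35 to 16.9), 7.23 (6.19 to 8.4) and 24.5 (21 to 28.4). Kcne3 fell at each stage, from 222 CPM (167 to 290) to 94.6 (80.5 to 111), 16.2 (14.7 to 17.9) and 3.62 (2.36 to 5.3). Kcne3 was thus highest at E12 and Esm1 had an adult level above that of P2. The E12 level of Esm1 rests on 8 UMIs in 5 cells, of which 1 cell gave 4, and it is 16.7 CPM without that cell. Its E12 and E15 intervals overlap, as do those of E15 and P2.

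**Figure D1:**
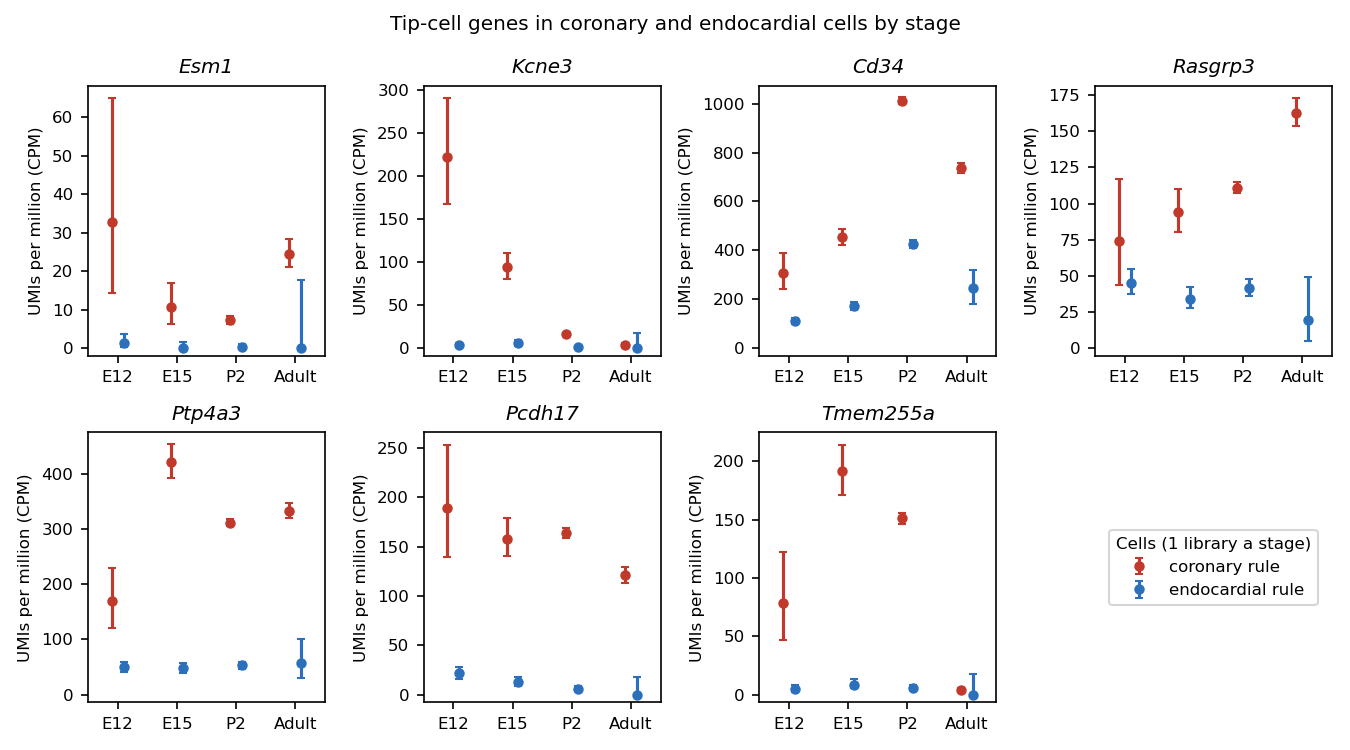
Level of each member by stage (CPM, linear axes that differ between genes) in coronary (red) and endocardial (blue) cells, with exact 95% Poisson intervals for counting error in 1 library per stage. Kcne3 in coronary ECs steps down from 222 CPM at E12 to 3.62 CPM in the adult, and Tmem255a drops between P2 (151 CPM) and the adult (4.03 CPM).

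A change between consecutive stages was called at 2-fold with at least 20 UMIs in the compared groups together. From E12 to E15, 2 of 7 members rose, Ptp4a3 2.5-fold (95% interval 1.82 to 3.52) and Tmem255a 2.45-fold (1.54 to 4.12). Of all 7203 genes with enough UMIs 11.7% passed the same call. Kcne3 fell 2.35-fold (1.69 to 3.22) and Esm1 3.07-fold (1.16 to 7.43), where 5.21% of genes fell, and the Esm1 call was lost without its highest cell (E15 over E12 0.607). Requiring a Pecam1 or Cdh5 UMI in each cell left the Kcne3 ratio at 0.358 and that of Esm1 at 0.321. On the log2 scale the interval of Kcne3 was then -1.99 to -0.95, while that of Esm1 (-3.11 to 0.03) also held no change. Mesenchymal genes were at 161 CPM at E12 and 348 CPM at E15 in coronary ECs, and lymphatic genes at 683 and 449 CPM.

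From E15 to P2 Cd34 rose 2.23-fold (2.08 to 2.4), from 454 to 1013 CPM, with 17.1% of genes rising that far and a median shift over all genes of 0.35 on the log2 scale. The Cd34 ratio was 1.87 once mitochondrial, ribosomal and hemoglobin genes were left out of the totals, which is below the call. Kcne3 fell 5.83-fold (4.81 to 7.03), where 5.44% of genes fell. From P2 to the adult Esm1 rose 3.39-fold (2.73 to 4.2), with 11.4% of genes rising. Over that step Kcne3 fell 4.49-fold (3.02 to 6.96) and Tmem255a 37.4-fold (26 to 55.9), where 13.4% of genes fell. Markers of other cells moved over the same step in the coronary class, with mural genes at 42.4 and 418 CPM, erythroid genes at 25.6 and 475 CPM, macrophage genes at 0.804 and 124 CPM and lymphatic genes at 1019 and 88.2 CPM. Except for lymphatic cells, without which the 3 calls stood, their part was not tested. Tmem255a went from 3564 UMIs in 1884 cells to 29 UMIs in 26 cells.

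Rasgrp3, Ptp4a3 and Pcdh17 stayed within 2-fold over both later steps. Rasgrp3 stood at 74.1, 94, 111 and 163 CPM from E12 to the adult, Pcdh17 at 189, 158, 164 and 121 CPM, and Ptp4a3 at 169, 422, 312 and 333 CPM. Cd34 stood at 309 CPM at E12 and 736 CPM in the adult. For Pcdh17 and Rasgrp3 the intervals of E12, E15 and P2 overlap, while for Cd34, Ptp4a3 and Tmem255a no consecutive stages had overlapping intervals. Without lymphatic-marked cells the adult over P2 ratio of Ptp4a3 was 1.01, with a log2 interval of -0.05 to 0.08 that holds 0. That of Cd34 was then 0.688.

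Shares of cells with a UMI followed depth as well as level. Kcne3 was seen in 24.8%, 8.85%, 5.31% and 0.564% of coronary ECs. Thinned to 500 UMIs per cell these shares were 10.6%, 3.87%, 0.522% and 0.147%, in the same order of stages. Esm1 was seen in 4.42%, 1.44%, 2.24% and 2.94%, and after thinning in 0%, 0.589%, 0.261% and 1.37%. Tmem255a at P2 went from 41% to 7.85%, below the thinned E15 share of 9.76%. Cd34, Ptp4a3, Pcdh17 and Rasgrp3 were seen at P2 in 89%, 60.8%, 44.3% and 39.2% of coronary ECs before thinning, far more widely than Esm1 and Kcne3. In mesenchyme-marked cells, which should lack both genes, Esm1 had 0, 0, 0 and 1 UMIs and Kcne3 3, 4, 0 and 0. Macrophage-marked cells had no Esm1 UMI, but 3 of 34 such cells at E15 had Kcne3 (8.82%), close to the coronary share, and whether macrophages express it was not tested. In E12 droplets of 1 to 100 UMIs, which hold free RNA, Esm1 was at 5.48 CPM and Kcne3 at 13.7 CPM.

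Most members were higher in coronary than in endocardial cells. At E12, 5 of the 6 with enough UMIs were at least 2-fold higher in coronary than in endocardial cells, against 5.37% of all genes. The counts were 6 of 6 at E15 (5.66% of genes), 7 of 7 at P2 (11.0%) and 4 of 7 in the adult (12.2%). The median log2 ratio of the members was 2.46, 3.42 and 4.39 at E12, E15 and P2, against -0.18, -0.13 and -0.08 over all genes. The exception at E12 was Rasgrp3 (1.64-fold, 0.936 to 2.71). Mesenchymal genes were higher in the endocardial class at every stage, at 962 against 161 CPM at E12, 913 against 348 at E15, 1100 against 306 at P2 and 2534 against 598 in the adult, and erythroid genes at E12 (1266 against 140 CPM). Their part in the ratios was tested only by requiring a Pecam1 or Cdh5 UMI, which gave 4, 6, 7 and 4 members called.

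Kcne3 had the highest ratio at E12 among the members called, at 222 against 3.23 CPM (68.7-fold, 32.5 to 167). Its endocardial level rests on 8 UMIs in 4 cells, 4 of them in 1 cell, and lies below the 13.7 CPM of E12 droplets of 1 to 100 UMIs. At E15 Tmem255a led (22.3-fold), followed by Kcne3 (17.8-fold) and Pcdh17 (12.9-fold). At P2 Esm1, Pcdh17, Tmem255a and Kcne3 were 21- to 37.5-fold higher, and Ptp4a3, Rasgrp3 and Cd34 2.38- to 5.85-fold. Without lymphatic-marked cells Cd34 was 2.69-fold higher at P2. The P2 ratio of Esm1 rests on 1 endocardial UMI (interval 6.64 to 1490), and that of Kcne3 on 4 (8.15 to 77.6). Cd34 stood at 109, 172, 426 and 244 CPM in the endocardial class. In mesenchyme-marked cells without a Pecam1 or Cdh5 UMI it stood at 119, 125, 260 and 724 CPM. E12 droplets of 1 to 100 UMIs held it at 174 CPM, above the E12 endocardial level. How much of the endocardial level comes from free RNA or other cells was not tested. The adult endocardial class of 75 cells had 0 UMIs of Esm1, Kcne3, Pcdh17 and Tmem255a, with an exact upper limit of 17.7 CPM each. Against a floor of 3 counts, 14.4 CPM, Pcdh17 was called in coronary ECs and the other 3 were not. The mean number of members per cell, after thinning to 500 UMIs, was 0.43, 0.65, 0.75 and 0.58 in coronary ECs and 0.11, 0.14, 0.22 and 0.17 in endocardial cells.

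Artery-rule cells at P2 were high in Esm1 and low in Kcne3. Esm1 stood at 13.7 CPM there and at 5.88 CPM in the other coronary ECs (2.33-fold, 1.66 to 3.24), the one member of 7 called higher, against 3.01% of genes. Kcne3 was at 4.31 against 18.4 CPM, or 4.28-fold lower (2.63 to 7.42), and Tmem255a at 80.9 against 163 CPM, or 2.01-fold lower (1.8 to 2.27). Lower calls took 5.12% of genes. Rasgrp3 (1.47-fold), Cd34 (1.21-fold) and Ptp4a3 (1.15-fold) were above 1 and Pcdh17 below (0.733), all within the 2-fold limit. Lymphatic genes were at 202 CPM in artery-rule cells and 1171 CPM in the others. Without lymphatic-marked cells the ratios of Esm1, Kcne3, Tmem255a and Cd34 were 2.17, 0.23, 0.463 and 1.16.

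In the adult Esm1 was again higher by the artery rule, at 30.7 against 17.1 CPM, but by 1.8-fold (1.3 to 2.5), under the limit. No member was called higher, against 2.17% of genes, and Kcne3 was lower (0.403, 0.152 to 0.974), against 3.35%. The adult Kcne3 ratio rests on 8 UMIs in artery-rule cells. Macrophage genes were at 277 CPM in adult artery-rule cells and 43.4 CPM in the others, and their part in the ratio was not tested.

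The embryonic artery-rule cells, most of which lacked a Pecam1 or Cdh5 UMI, were low in the members. At E12, 0 of the 5 members with enough UMIs were called higher and 4 lower (Kcne3, Rasgrp3, Ptp4a3, Pcdh17), against 18.2% and 9.33% of genes. At E15, 0 of 6 were higher and 4 lower (Kcne3, Rasgrp3, Pcdh17, Tmem255a), against 11.7% and 13.4%. With the rule applied only within the coronary class, the 19 cells left at E15 had Rasgrp3 at 0.979, Tmem255a at 0.637, Cd34 at 1.01 and Ptp4a3 at 1.39 times the other coronary ECs, so the first 2 were no longer called. With a Pecam1 or Cdh5 UMI required, Tmem255a at E15 (0.669) and Ptp4a3 at E12 (0.758) were no longer called either, and Pcdh17 at E12 (0.195) still was. On the log2 scale, the intervals of Rasgrp3 (-2.32 to 1.54) and Tmem255a (-2.54 to 0.72) in the 19 cells still held the main values (-1.77 and -1.81). Those of Cd34 (-0.82 to 0.75) and Ptp4a3 (-0.26 to 1.13) left theirs out (-0.98 and -0.99). Why these values moved was not tested.

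Dividing cells were marked by a UMI of Top2a, Ube2c or Birc5, genes of chromosome segregation and mitosis. They made up 47.8%, 28.1%, 27.3% and 1.47% of coronary ECs from E12 to the adult. A single UMI sets the mark, so these shares follow depth too and are not matched between stages. At P2 the share in cells with neither Esm1 nor Kcne3 was 26.4%, and 14.6% after thinning to 1000 UMIs. At P2 Esm1 was 0.367 times as high in cycling cells as in the rest (0.237 to 0.55), at 3.43 against 9.35 CPM, and was the only member called lower, where 4.73% of genes were. Kcne3 went the other way, at 22.9 against 12.5 CPM (1.83-fold, 1.49 to 2.25), which is under 2-fold, and 0 members were called higher, where 5.02% of genes were. Cycling cells were deeper (median 6264 against 4166 UMIs), and the split was repeated within 5 equal bins of cells by UMIs. From the lowest to the highest bin, the Esm1 ratios were 0.737, 1.03, 0.512, 0.254 and 0.254, of which the intervals of the upper 2 bins left out 1 (0.0972 to 0.563 and 0.134 to 0.457). The lower 3 bins rest on 1 to 3 UMIs in cycling cells, and their intervals hold 1 and also 0.254. The Kcne3 ratios were 9.12 (3.34 to 26.1), 1.05 (0.316 to 2.77), 2.22 (1.11 to 4.26), 0.653 (0.359 to 1.14) and 1.41 (1.06 to 1.89). The intervals of the lowest, middle and highest bins lay above 1. That of the 1 bin below 1 held 1. The lowest bin rests on 11 Kcne3 UMIs in cycling cells.

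At E15 Kcne3 was at 112 against 85 CPM in cycling cells (1.31-fold, 0.944 to 1.82), while Tmem255a (0.671) and Ptp4a3 (0.765) were lower within the limit. No member was called there in either direction, against 4.66% of genes higher and 3.84% lower. Erythroid genes were at 3576 CPM in these cycling cells and 159 CPM in the rest, or 238 and 59 CPM without the highest cell of each group, and lymphatic genes at 573 and 378 CPM. The part of these cells was not tested, other than that leaving out lymphatic-marked cells gave the same count. At E12 0 of 4 members with enough UMIs were called, against 6.63% of genes higher. Ptp4a3 stood at 1.93 there on 41 UMIs, and it was 6.41 with a Pecam1 or Cdh5 UMI required, past the limit. In the adult Tmem255a was called higher (4.15-fold, 0.805 to 13.6) on 3 UMIs in cycling cells, where 11.1% of genes were. The adult cycling cells numbered 60 and carried macrophage genes at 829 CPM, against 104 CPM in the rest, and their part in the ratios was not tested.

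**Figure D2:**
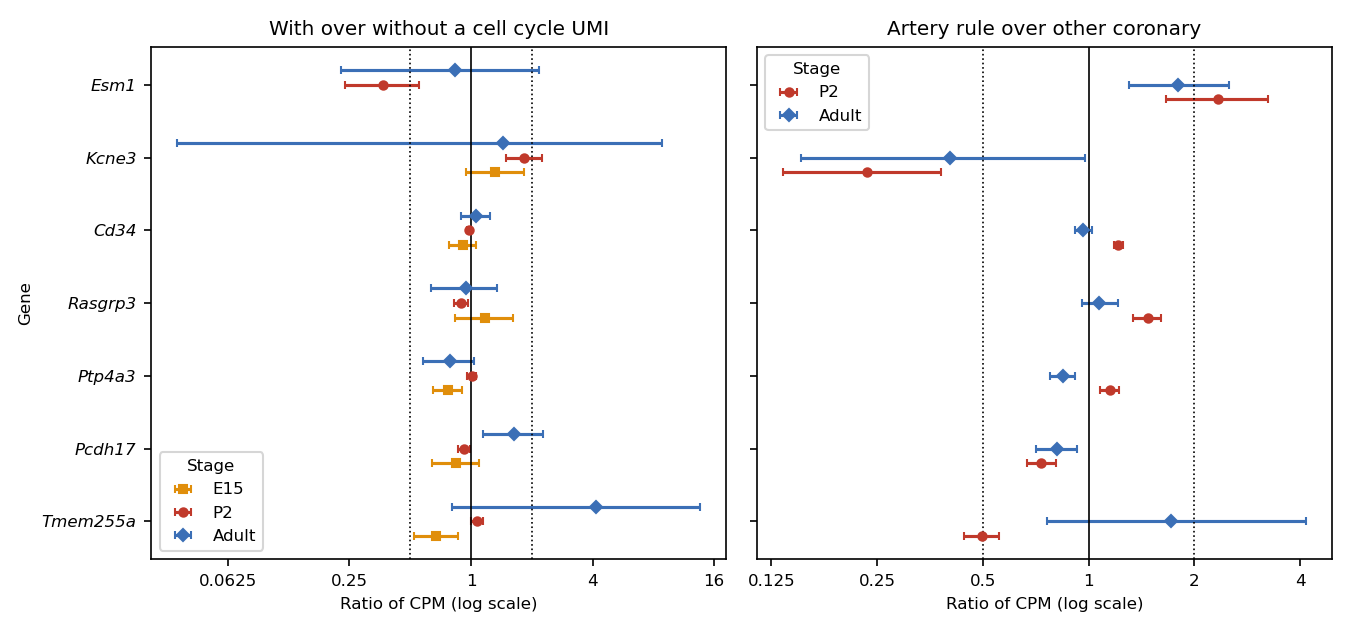
Ratio of each member's CPM (log axis) between cycling and other coronary ECs at E15, P2 and in the adult, and between artery-rule and other coronary ECs at P2 and in the adult, with exact 95% intervals, for members with at least 20 UMIs and dotted lines at 2-fold. At P2 Esm1 lies at 0.367 for the cell cycle and 2.33 for the artery rule, and Kcne3 at 1.83 and 0.234.

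Co-detection was read against the number of cells expected to hold both genes if they were independent within the same 5 bins of cells by UMIs, and pairs with at least 3 expected cells were kept. At P2 all 21 pairs of members were seen together more often than expected, with a median ratio of 1.14 and a range of 1.03 to 2.27. The interval lay above 1 in 13 pairs and began at 1 in 1 more. After thinning to 500 UMIs, 11 of the 13 pairs with enough expected cells were above 1, and Ptp4a3 with Tmem255a (0.919) and Kcne3 with Ptp4a3 (0.882) were below. The same ratio was not computed for other gene pairs, so these values are a description of the members alone. Esm1 with Kcne3 had the highest ratio of the 21, at 16 cells against 7.04 expected (2.27, 1.3 to 3.69). The next were Kcne3 with Tmem255a (1.38, 1.17 to 1.61), Kcne3 with Pcdh17 (1.33, 1.14 to 1.56) and Pcdh17 with Tmem255a (1.31, 1.23 to 1.39). Cd34, seen in 89% of cells, gave ratios of 1.03 to 1.07. The cells with both Esm1 and Kcne3 held a median of 11261.5 UMIs, against 4475 in cells with neither. Under the upper limits on UMIs, genes and mitochondrial share, 10 such cells were left against 5.64 expected (1.77), and 1.78 after doublet scoring as well. No interval was computed for these filtered ratios, so whether they stand clear of 1 is not shown. After thinning to 500 UMIs, 0 cells held both genes against 0.0627 expected, too few for a ratio. The part of doublets and of depth within a bin was not tested further.

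Few pairs reached 1.5 times at any stage. The counts were 1 of 14 at E12 (Kcne3 with Rasgrp3, 2.18, 0.942 to 4.3) and 0 of 19 at E15 (highest 1.45). They were 1 of 21 at P2 (Esm1 with Kcne3) and 1 of 18 in the adult (Pcdh17 with Tmem255a, 10 cells against 5.25, 1.91, 0.914 to 3.5). The intervals of the E12 and adult pairs hold 1. Esm1 with Kcne3 was seen in 2, 3 and 2 cells at E12, E15 and in the adult, too few to rank. In endocardial cells 5, 5, 9 and 1 pairs had enough expected cells from E12 to the adult, of which 2, 2, 1 and 0 reached 1.5 times, each on at most 22 cells and with an interval that held 1. In artery-rule cells at P2, 19 of 20 pairs were above 1 (median 1.08) and Esm1 with Tmem255a reached 1.6 (0.898 to 2.65), while 0 cells held both Esm1 and Kcne3 against 0.711 expected. In adult artery-rule cells Pcdh17 with Tmem255a was again the 1 pair of 17 past 1.5, at 9 cells against 3.61 (2.5, 1.14 to 4.74), and most of these cells are in the coronary class too.

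**Figure D3:**
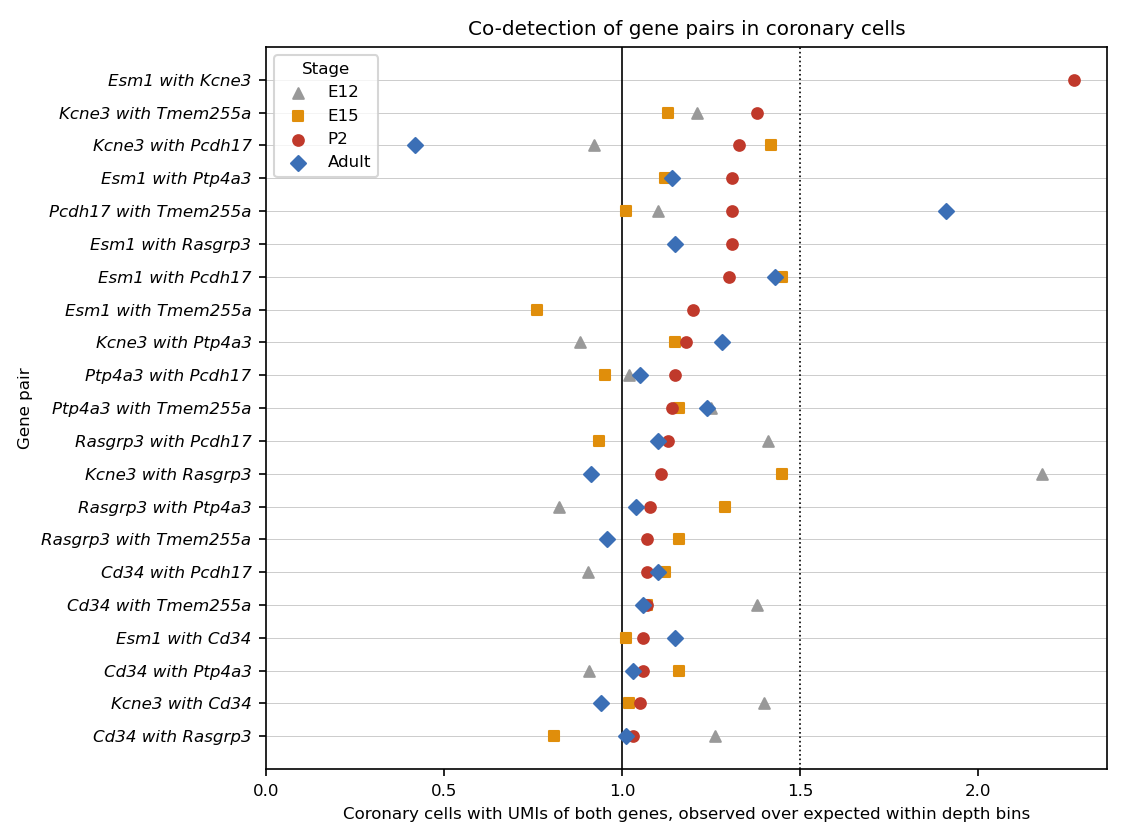
Observed over expected cells with UMIs of both genes for pairs of members in coronary ECs by stage, the expected number taken within 5 bins of cells by UMIs, with lines at 1 and 1.5. All 21 pairs at P2 lie above 1, with Esm1 and Kcne3 at 2.27.

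At P2 Esm1 was seen in 103 coronary ECs and Kcne3 in 244, with 16 in common where 7.04 were expected within the depth bins. Both genes were seen in few cells, so most cells with 1 of them lacked a UMI of the other. Kcne3 without Esm1 was found in 228 coronary ECs, of which 48.2% (exact binomial interval 41.6 to 54.9) had a cell cycle UMI and 6.58% (3.73 to 10.6) passed the artery rule. Esm1 without Kcne3 was found in 87, of which 14.9% (8.2 to 24.2) had a cell cycle UMI and 36.8% (26.7 to 47.8) passed the artery rule. The 4265 with neither gene stood between, at 26.4% and 14.8%. Of the 16 with both, 43.8% (19.8 to 70.1) were cycling and 0 passed the artery rule, which allows up to 20.6%. These 16 cells held a median of 11261.5 UMIs. With the marker genes counted after thinning to 1000 UMIs, 25% (7.27 to 52.4) of them were cycling.

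Depth differed between these groups, with medians of 6371.5 UMIs for Kcne3 alone and 5556 for Esm1 alone. With the marker genes counted after thinning each cell to 1000 UMIs, 29.8% (24 to 36.2) of Kcne3 cells and 5.75% (1.89 to 12.9) of Esm1 cells were cycling, against 14.6% of cells with neither. The artery rule was then passed by 0.877% (0.106 to 3.13), 12.6% (6.48 to 21.5) and 6.54%. The order of the 3 groups was the same after thinning. Of 6 artery genes outside the rule, 0 were called higher and 1 lower in P2 cells with an Esm1 UMI, against 2.88% and 8.26% of all genes. In P2 cells with a Kcne3 UMI 0 were called higher and 2 lower, against 1.68% and 9.05%. Cells with both genes are in both of these groups. In the adult, before thinning, 67.8% (58.6 to 76.1) of the 118 cells with Esm1 alone passed the artery rule. The shares were 45% of those with neither and 33.3% of 21 with Kcne3 alone. After thinning to 1000 UMIs they were 55.6% of 99 cells with Esm1 alone, 33% with neither and 11.1% of 18 with Kcne3 alone. Artery genes outside the rule did not follow this order in the adult. Of 6, 0 were called higher and 3 lower in Esm1 cells (Gja5 0.403, Sema3g 0.411, Bmx 0.184), against 4.94% and 7.95% of all genes. In the 23 cells with Kcne3, with or without Esm1, 4 were higher and 0 lower (Gja5 5.51, Sema3g 5.39, Gja4 3.41, Hey1 2.73). Of 6 capillary genes, 0 were called higher and 5 lower in the same 23 cells. The share over all genes was not computed for that small group and intervals are not given, so these counts are not read as an excess. These artery genes were named after their values were seen.

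**Figure D4:**
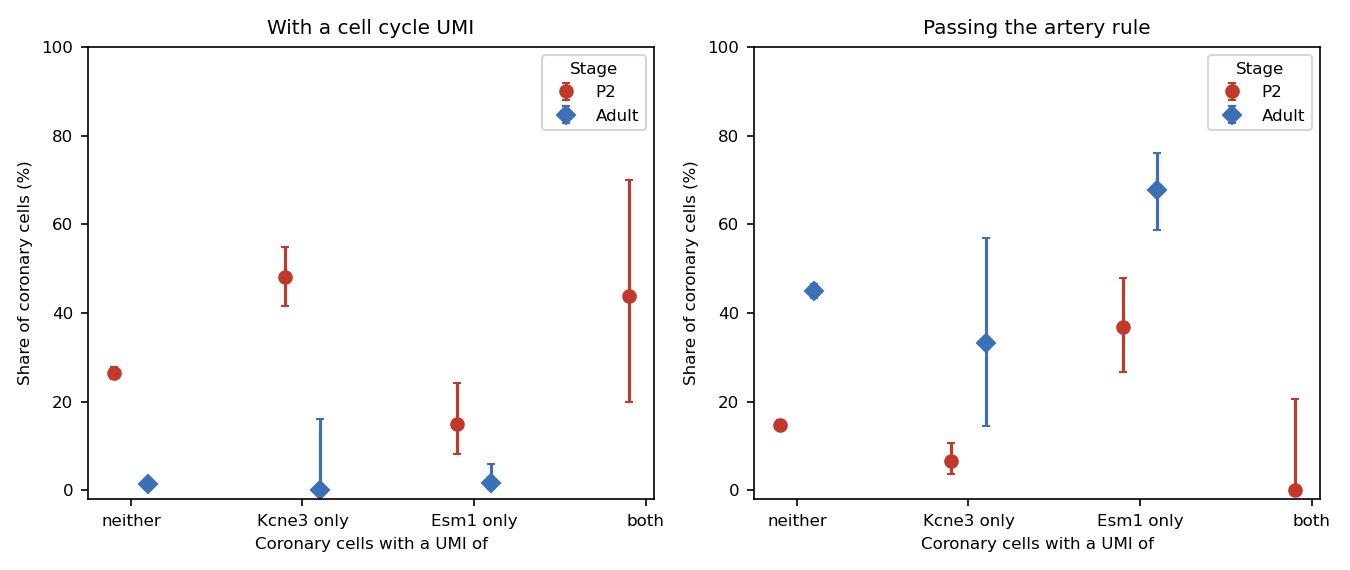
Percent of coronary ECs with a cell cycle UMI and percent passing the artery rule, at P2 and in the adult, by detection of Esm1 and Kcne3, in groups of at least 10 cells with exact 95% binomial intervals and no thinning. At P2 cells with Kcne3 alone are at 48.2% and 6.58%, and cells with Esm1 alone at 14.9% and 36.8%.

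Other tip cell genes were compared between coronary ECs with and without a Kcne3 or Esm1 UMI, over a list of 32 genes. Kcne3 cells at P2 had 3 genes at least 2-fold higher and 0 lower, against 1.68% and 9.05% of all genes. These were Apln, the ligand of the apelin receptor (196 against 72.8 CPM, 2.7-fold, 2.4 to 3.02), Adm, the vasodilator adrenomedullin (108 against 40.1 CPM, 2.69-fold, 2.29 to 3.14), and Igfbp3, a binding protein of insulin-like growth factors (306 against 122 CPM, 2.51-fold). The median log2 ratio over the list was 0.19, against -0.09 over all genes. Kcne3 cells were the deeper group, with a median of 6496.5 against 4499 UMIs.

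Esm1 cells at P2 shared Apln (228 against 77.9 CPM, 2.92-fold, 2.46 to 3.45) and Igfbp3 (331 against 131 CPM, 2.53-fold) but had Adm at 48.5 against 45.2 CPM (1.07-fold, 0.735 to 1.52). Cxcr4, the receptor of the chemokine Cxcl12, was also called higher (2.03-fold, 0.859 to 4.12) on 8 UMIs. Ednrb, an endothelin receptor, was called lower (0.471, 0.359 to 0.607), and so was Inhbb, an activin subunit, on 1 UMI. This made 3 higher and 2 lower of 32, against 2.88% and 8.26% of all genes. The 16 cells with both Esm1 and Kcne3 are in the Esm1 and the Kcne3 group alike, and no ratio was taken without them. Lymphatic genes stood at 22.1 CPM in Esm1 cells and 127 CPM in Kcne3 cells, against 1049 and 1094 CPM in cells without these genes. Without lymphatic-marked cells Apln was 2.74-fold higher in Esm1 cells and 2.5-fold in Kcne3 cells, while Cxcr4 (1.9) and Ednrb (0.511) of the Esm1 cells no longer reached the limit. Erythroid genes were at 479 CPM in Esm1 cells, all 326 UMIs in 1 cell, and at 12.1 CPM in the rest.

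**Figure D5:**
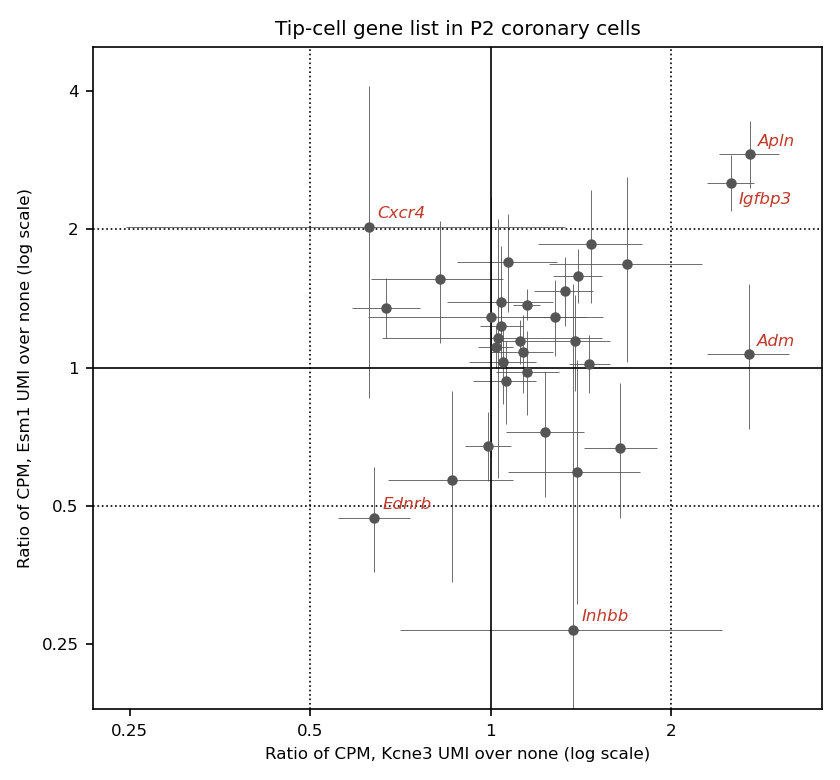
Each point is a gene of the tip cell list, with its ratio of CPM between P2 coronary ECs with and without a Kcne3 UMI (horizontal) and with and without an Esm1 UMI (vertical), on log axes with exact 95% intervals, that of Inhbb running off the axis, and dotted lines at 2-fold. Apln is high in both splits (2.7 and 2.92), and Adm in the Kcne3 split (2.69) but not in the Esm1 split (1.07).

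At E15, Kcne3 cells had Adm (2.79-fold, 1.43 to 5.15) and Plaur, the urokinase receptor (2.02-fold, 1.15 to 3.39), higher and Pgf, a placental growth factor, lower on 1 UMI, against 3.79% and 10.6% of genes. The 18 Esm1 cells of that stage had 8 of 30 tip genes higher and 2 lower, where 18.5% and 3.30% of all genes were. Cxcr4 (4-fold, 1.26 to 9.72) and Igfbp3 (2.09-fold, 1.32 to 3.17) were the higher ones whose interval left out 1. Lymphatic genes were at 10 CPM in the Kcne3 cells and 0 CPM in the Esm1 cells of E15, against 508 and 456 CPM in the cells without, and their part in these ratios was not tested. Erythroid genes were at 10784 CPM in the Kcne3 cells of E15 and 134 CPM in the rest, of which 1 cell held 2035 UMIs, and at 589 CPM without that cell. In the adult, genes named after their values were seen were Apln (4.79-fold, 3.22 to 6.92) and Angpt2, which antagonizes Tie2 signaling (3.88-fold), among 5 higher and 2 lower in Esm1 cells, against 4.94% and 7.95% of genes.

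Apln and Cxcr4 also serve as markers of tip cells in their own right. At P2 Kcne3 and Apln were in the same 112 cells against 66.2 expected within the depth bins (1.69, 1.39 to 2.04). Kcne3 and Cxcr4 were in 5 against 6.74 (0.742, 0.241 to 1.73), an interval that holds 1, and at E15 their ratio was 1.09 (0.439 to 2.25). Esm1 and Cxcr4 shared 6 cells at P2 against 2.78 expected and 6 in the adult against 2.18, too few expected for a ratio. Esm1 and Apln shared 36 cells against 25.4 (1.42, 0.994 to 1.96) at P2 and 12 against 4.98 (2.41, 1.25 to 4.21) in the adult.

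Genes most like each member were ranked by the correlation of log2(CPM + 10) over 12 groups, the 4 stages by artery-rule, other coronary and other endocardial cells, among 10056 genes. The groups of a stage share a library, so the values are descriptions. For Kcne3 they were Clec1b (r = 0.97), Samsn1 (0.97) and Ccdc180 (0.96), and for Esm1 Arl15 (0.94), Halr1 (0.89) and Ttl (0.88). Rasgrp3 had Sh3bgrl2 (0.97), Kdr (0.96) and Ets1 (0.96), of which Kdr encodes the main receptor of vascular endothelial growth factor. Ptp4a3 had Ankrd37 (0.97), Cldn5 (0.95), which is part of the coronary rule, and Rnf144a (0.95). Pcdh17 had Rps6ka3 (0.96), Ephb1 (0.95) and Tnfaip8l1 (0.95), Tmem255a had Slmo2 (0.92), Tubb6 (0.91) and Ccl21a (0.90), and Cd34 had Capza2, Vamp3 and Tpm4 (0.95 each). Among the members themselves, Ptp4a3 and Pcdh17 were most alike (0.89) and Kcne3 and Cd34 least (0.10).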

How the data were processed

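Single-cell libraries (10x Genomics, 3' chemistry) held 1 pooled sample per stage. The values are raw UMI counts per gene and barcode as the authors deposited them, made with Cell Ranger 2.2 on mm10 according to the submitters' processing notes. The E12 file held all 737280 barcodes, and those with at least 452 UMIs (the 0.99 quantile of the 3000 deepest barcodes times 0.1) were kept, with 88.7% of its UMIs. The other files held called cells. Kept cells numbered 5732, 6062, 5884 and 4242 from E12 to the adult, with medians of 1241, 1013, 4531.5 and 1510 UMIs and totals of 8122358, 7079759, 29645059 and 7650091. UMIs were summed per class and stage. Ratios have exact conditional binomial 95% intervals, and no test between stages was possible. Against a group with 0 UMIs, the ratio was taken from a floor of 3 counts. Samples were grouped by the stage in their labels, and all 4 were used.

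No cells were removed as doublets in the main values. Scrublet scores (scanpy 1.11.5) passed 0.15 in 6.12%, 9.47%, 4.32% and 2.43% of cells, where 4.59%, 4.85%, 4.71% and 3.39% doublets are expected at 0.8% per 1000 cells, and in 47%, 50.4%, 51.1% and 20.4% of made doublets. Analysis used Python 3.11, numpy 2.4.6, scipy 1.17.1, pandas 2.3.3 and matplotlib 3.10.9, and the calling script was tested on simulated data.

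All 7 members are named, with tip list genes at least 2-fold different between cells with and without Kcne3 or Esm1 UMIs at E15 and P2 (at most 8 each by size) and the 3 genes most like each member. The members and lists were chosen with earlier results of these data known. Alternatives were limits on UMIs, genes and mitochondrial share, the doublet score, a stricter coronary rule, the artery rule within coronary ECs, thinning, a higher E12 cutoff, other totals, leaving out the highest cell, no UMI minimum and no depth bins. Requiring a Pecam1 or Cdh5 UMI, leaving out lymphatic-marked cells and thinning to 1000 UMIs were added after seeing the data.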

Additional observations from a re-analysis of the deposited data

Results flagged for a closer look

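The artery-rule ratio of several members went in opposite directions between stages. These differences were not tested, since each stage is 1 library, and every interval on either side left out 1. Artery-rule cells over other coronary ECs gave Esm1 2.33 at P2 and 1.8 in the adult but 0 at E12, where the rule's cells held no Esm1 UMI. Cd34 was at 1.21 at P2 and at 0.603 and 0.505 at E12 and E15. Rasgrp3 was at 1.47 at P2 and at 0.0718 and 0.293 at E12 and E15. Ptp4a3 was at 1.15 at P2 and below 1 at E12 (0.368), E15 (0.504) and in the adult (0.843). The embryonic artery-rule cells differ from the later ones in endothelial markers, with a Pecam1 or Cdh5 UMI in 7.83% and 30.4% of them against 99.7% at P2. With the rule applied within the coronary class, the E15 values of Cd34, Rasgrp3 and Ptp4a3 were 1.01, 0.979 and 1.39, on 19 cells. With a Pecam1 or Cdh5 UMI required Ptp4a3 was at 1.02. Within the coronary class the E15 side of the contrast was thus not seen, although the interval of Rasgrp3 still held its main value. Under the Pecam1 or Cdh5 requirement this applies to Ptp4a3 only. Cd34 and Rasgrp3 were not among the E15 artery-rule ratios that moved out of their main intervals under that requirement.

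Pcdh17 was higher in cycling coronary ECs in the adult (1.64) and lower at P2 (0.92), a difference that was not tested. The adult cycling cells numbered 60.

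The E12 droplets below the UMI cutoff also held transcripts of the members, more than the 3 counts taken as the floor. They had 186 UMIs of Cd34, 89 of Ptp4a3, 31 of Pcdh17, 24 of Rasgrp3, 14 of Kcne3, 10 of Tmem255a and 4 of Esm1, over 158274 droplets.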

How the results depend on the processing

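No paired analysis was possible because each stage has 1 library and the labels give no replicate numbers. Thinning every cell to 500 UMIs removed most UMIs of weak genes and left 29, 882, 3967 and 3914 coronary ECs, and under it Kcne3 from E12 to E15 reversed (log2 ratio 0.20 against -1.23, interval -2.37 to 5.55). Also under thinning, members higher in coronary than endocardial cells went from 5 to 3 at E12 and from 4 to 2 in the adult, members higher at E15 than E12 from 2 to 1 and lower from 2 to 0. Members higher by the artery rule went from 1 to 0 at P2, where Esm1 itself rose to 17.1-fold on too few UMIs to call, and from 0 to 1 in the adult. Members higher in cycling cells at E15 went from 0 to 1.

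Pairs at least 1.5 times as frequent as independence gives moved most often. Without depth bins they numbered 4 in the adult (1 with them), 2 at E12 (1), 3 at E15 (0) and 2 at P2 (1). Under thinning they numbered 0 at P2, 1 at E15 and 0 at E12. At E12 they numbered 2 under the upper limits or without lymphatic-marked cells, and 0 with the coronary rule at 3 UMIs, the cutoff at 1000 UMIs or a Pecam1 or Cdh5 UMI required.

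Leaving out the highest cell of each gene gave 1 in place of 0 members higher by the artery rule in the adult, 0 in place of 1 higher in cycling adult cells, 1 in place of 2 lower at E15 than E12, and 1 in place of 0 higher in cycling E12 cells. That last count was also 1 under the upper limits, with the doublet score, with an endothelial marker required and without lymphatic-marked cells. Without mitochondrial, ribosomal and hemoglobin genes 0 in place of 1 members rose from E15 to P2. The cause of these shifts was not tested beyond the smaller number of UMIs. The artery rule within coronary ECs gave no E12 value, since 0 cells passed both, and of its 20 ratios 4 moved, all at E15: Cd34 from 0.505 to 1.01, Ptp4a3 from 0.504 to 1.39, Rasgrp3 from 0.293 to 0.979 and Tmem255a from 0.285 to 0.637. Depth limits the weak members, Esm1 with 8 to 176 UMIs in the coronary ECs of a stage and, in the adult, Kcne3 with 26 and Tmem255a with 29.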

Other observations

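Genes of vessel identity and division, from lists other than the tip cell list, also differed between P2 coronary ECs with and without the 2 leading members. Of all genes, 1.68% were at least 2-fold higher and 9.05% lower in Kcne3 cells. In Esm1 cells the shares were 2.88% and 8.26%, and they apply to each P2 list below. Of 4 vein genes, 3 were at least 2-fold lower in both Kcne3 and Esm1 cells: Nr2f2, a transcription factor of venous identity (0.498 and 0.232), Vwf, von Willebrand factor (0.443 and 0.28), and Prss23, a serine protease (0.023 and 0.0324). Without lymphatic-marked cells these ratios were 0.527 and 0.244, 0.373 and 0.283, and 0.0936 and 0.172, so Nr2f2 in Kcne3 cells no longer reached the limit. Of 6 artery genes, 0 were called higher in either group, while 2 were called lower in Kcne3 cells and 1 in Esm1 cells. Gja4, a gap junction gene, was at 0.333 (0.263 to 0.416) in Kcne3 cells and 1.19 (0.968 to 1.45) in Esm1 cells. Bmx, a tyrosine kinase gene, was lower in both (0.339 and 0.471). Hey1, a Notch target, was at 0.644 in Kcne3 cells and 1.81 in Esm1 cells. Without lymphatic-marked cells, Gja5, Efnb2 and Sema3g were at 0.403, 0.663 and 0.652 in Kcne3 cells and at 1.26, 1.04 and 1.07 in Esm1 cells.

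Among 6 capillary genes Timp4, a metalloproteinase inhibitor, was lower in both (0.42 and 0.38), and Car4, a carbonic anhydrase, was called in Kcne3 cells (0.467) and stood at 0.566 in Esm1 cells. Of 5 further division genes, Ccnb1 and Cenpf were lower in Esm1 cells (0.323 and 0.399) and stood at 1.36 and 1.25 in Kcne3 cells. In the adult 3 of 4 division genes were called higher and 0 lower in Esm1 cells, against 4.94% and 7.95% of all genes. These were Ccnb1 (4.25, 0.805 to 14.4), Cdk1 (2.45, 1.09 to 4.83) and Mki67 (2.07, 0.544 to 5.62), and the intervals of Ccnb1 and Mki67 hold 1. Of the 118 adult cells with Esm1 alone, 2 had a cell cycle UMI. The difference between stages was not tested. The groups compared here are cells of 1 library, and Kcne3 cells, Esm1 cells and their comparison cells overlap.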
